A study of Mus musculus with 36 samples.

Results

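The comparison of 65–79*PE plus IFNγ with PBS in replicates 1–3 set 3 libraries of stimulated RAW264.7 cells against 3 libraries of PBS-treated cells, 6 of the 36 samples of the series. RAW264.7 is a mouse macrophage line derived from a tumour induced by Abelson leukaemia virus, so all libraries came from 1 line. The stimulated cells received IFNγ at 5 ng/ml together with the 15-mer synthetic peptide 65–79*PE at 100 µg/ml, and the control cells received PBS, the only treatment their labels give. Both were harvested at 72 h after the medium had been renewed at 48 h. The members were taken from the labels alone, namely every library of these 2 groups in the IFNγ count table whose sample title gives replicate 1 to 3. The peptide copies a stretch of the HLA-DRβ chain that carries the protective epitope (PE). A second peptide with the shared epitope (SE), 65–79*SE, was given with the same cytokine in 3 further libraries of these replicates. The libraries used here received either PBS or cytokine and peptide together, so the changes below belong to the pair and the parts of IFNγ and of the peptide cannot be told apart. The question addressed was which genes differ between macrophages held for 72 h in this M1-polarising mixture and unstimulated macrophages.

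IFNγ binds a receptor made of IFNGR1 and IFNGR2, which carry the kinases JAK1 and JAK2. These kinases phosphorylate STAT proteins, whose dimers bind the GAS element of promoters and switch on IRF1 and further transcription factors. IRF1 in turn binds the ISRE element, and the coactivators CIITA and NLRC5 then drive the MHC class II and class I genes. In macrophages the pathway is known for antigen presentation, for the guanylate-binding and immunity-related GTPases that attack vacuoles holding microbes, for nitric oxide and for the chemokines that draw T cells, and for a block of osteoclast formation.

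The 3 PBS libraries held 27987849 to 31229497 counts and the 3 PE libraries 29293589 to 32284471, and levels are given in CPM, the reads of a gene scaled to a common library size with TMM factors. At this depth 3 counts correspond to 0.0929 to 0.105 CPM. Libraries of 1 group correlated at 0.9879 or above on the log2 CPM scale and libraries of different groups at 0.9628 or below, across genes. PBS replicate 1 stood slightly apart from PBS replicates 2 and 3, and its values are named where it differs. Mitochondrial transcripts took 2.53–3.56% of the counts in PBS and 1.77–1.87% in PE. The macrophage markers Spi1 and Cd68, picked after their values were seen, were expressed in both groups. Among the other macrophage markers, Mertk was too low to be tested, Lyz2 fell and Csf1r was lower without a call, as given below. Spi1, which encodes the lineage factor PU.1, was at 296, 345 and 348 CPM in PBS and 331, 319.8 and 335 CPM in PE, and Cd68, a lysosomal glycoprotein of macrophages, was at 1230, 1357 and 1312 CPM in PBS and 1136, 1149 and 1225 CPM in PE. Of the markers of other cell types, Cd3d, Cd3e, Ms4a1, Ncr1 and Epcam averaged under 3 counts in both groups, and the summed level of each list of such markers is given with the last gene lists below.

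Every p below is from edgeR's quasi-likelihood test with Benjamini-Hochberg adjustment over the 15343 genes tested, of 49568 listed. A gene was called at an adjusted p under 0.05 and a fold change over 1.5, and "rose" and "fell" are used for called genes only. Values after ± are the SD over the 3 libraries for levels. On the log2 scale they are approximate standard errors, the log2 fold change divided by the square root of the test's F statistic. They are too small where a group held few counts, as at H2-Aa and Ly6a, and do not measure precision there. The labels number the libraries without saying which came from separate cultures, and the study describes 6 biological replicates from 2 independent experiments. The p-values measure the spread between these libraries, which may be partly technical. In bulk RNA, fewer cells that express a gene and less RNA per cell cannot be told apart.

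The PE libraries differed from the PBS libraries at 3045 genes, 19.8% of those tested. Of these, 1582 rose (10.3% of the genes tested) and 1463 fell (9.54%). These shares are the background beside which each list count below is to be read. Every PE library lay above every PBS library at 27.1% of the genes tested and below at 27%. The rises were the larger: 892 genes rose and 585 fell over 2-fold, and 148 rose and 31 fell over 8-fold. In 82 of the genes that rose, no PBS library held more than 3 counts. The median log2 fold change of all genes tested was 0.00. Without PBS replicate 1, 2743 genes were called.

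**Figure D1:**
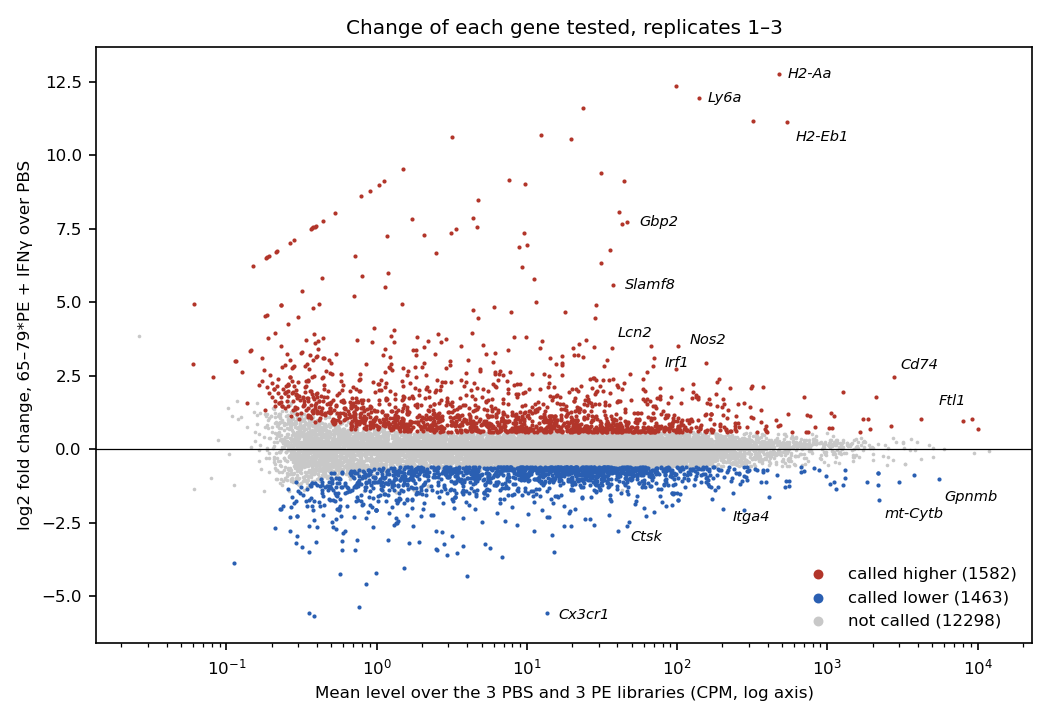
Each point is a gene tested; the x axis is its mean level over the 3 PBS and 3 PE libraries (CPM, log axis) and the y axis its log2 fold change, with called rises in red, called falls in blue and genes not called in grey. H2-Aa and Ly6a lie at 12.76 and 11.95 on the log2 scale, while Cx3cr1, the largest labelled fall, lies at −5.54.

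The largest rises were in the MHC class II genes and in interferon-induced genes that were nearly silent in PBS. H2-Aa encodes the α chain of the class II molecule I-A (ENSMUSG00000036594.15, chr17:34282744-34287823 of GRCm38, minus strand). It was at 0.155, 0.136 and 0.105 CPM in PBS and 1011, 931 and 912 CPM in PE, a rise of 6934-fold (log2 fold change 12.76 ± 0.13, adjusted p = 2.8e-16). The PBS libraries held no more than 5 counts of it each, and every PE library lay far above them. Ly6a encodes the surface protein Sca-1, an interferon-induced antigen of lymphocytes and progenitors, and was at 0.124, 0.034 and 0.0352 CPM in PBS and 268, 268 and 301 CPM in PE. It rose 3955-fold (log2 fold change 11.95 ± 0.16, adjusted p = 1.7e-15), with no overlap of the groups. The sizes of both folds rest on few PBS counts. Serpina3f, a member of a cluster of serine protease inhibitors, had 2 counts over the 3 PBS libraries and 3613 over the 3 PE libraries, a ratio of 1770 (95% interval 488–14600). Count intervals here and below cover counting error only.

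The largest falls were smaller and started from moderate levels. Cx3cr1 encodes the fractalkine receptor of monocytes and microglia and was at 15.3, 32.5 and 31.8 CPM in PBS and 0.609, 0.621 and 0.46 CPM in PE. It fell 46.7-fold (log2 fold change -5.54 ± 0.31, adjusted p = 7.8e-09); PBS replicate 1 was the lowest of its group and still lay above every PE library. Deptor, an inhibitor of the kinase mTOR, fell 10.1-fold from 10.4 ± 4.44 to 1.03 ± 0.271 CPM, and Tmem176a, a membrane protein of dendritic cells, fell 7.58-fold. Gpr183, the oxysterol receptor that guides the position of immune cells in lymphoid tissue, was at 30.03, 30.8 and 30.8 CPM in PBS and 5.17, 4.78 and 4.96 CPM in PE and fell 6.14-fold (log2 fold change -2.62 ± 0.09, adjusted p = 2.9e-11). F10, coagulation factor X, fell 6.87-fold. Selenbp1 and Selenbp2, a pair of close paralogues that bind selenium, fell 11.2-fold and 12.6-fold. Selenbp1 was at 8.3, 33.1 and 42.7 CPM in PBS and 2.57, 2.33 and 2.56 CPM in PE, with PBS replicate 1 the lowest of its group, and reads may be shared between the pair.

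**Figure D2:**
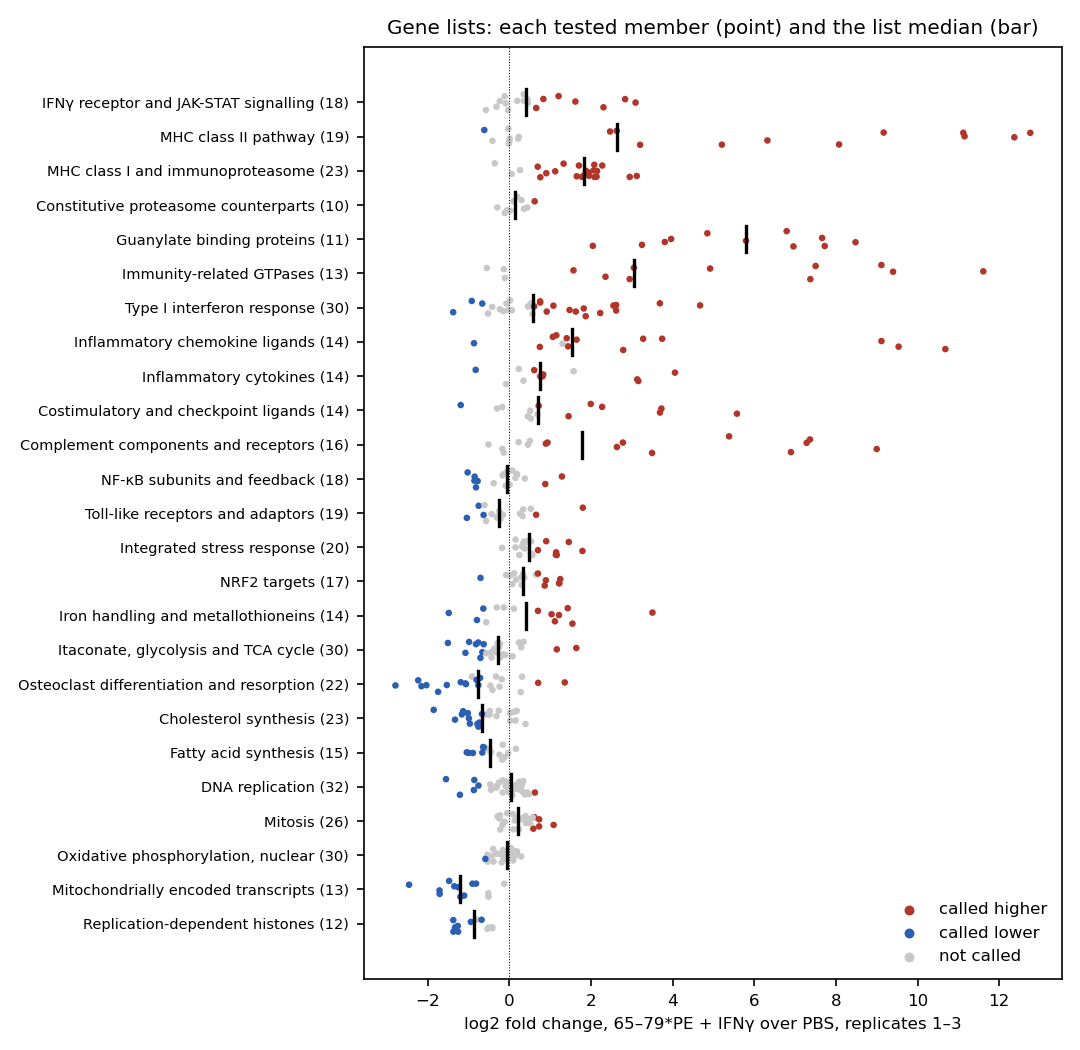
Each point is a tested member of a gene list (the number tested in brackets), placed on the x axis by its log2 fold change of PE over PBS and coloured by the call; the black bar is the list median. The guanylate-binding proteins lie wholly to the right of 0 with a median of 5.80, and the osteoclast, cholesterol synthesis and mitochondrially encoded lists have medians below 0.

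Of the 18 genes of IFNγ receptor and JAK-STAT signalling, 7 rose and none fell (10.3% and 9.54% of all genes), and the median log2 fold change was 0.40. The members that rose were transcription factors and feedback inhibitors. Irf1 (chr11:53770014-53778374 of GRCm38, plus strand), the factor that binds the ISRE, was at 16.8, 18 and 16.2 CPM in PBS and 113, 115 and 135 CPM in PE and rose 7.13-fold (log2 fold change 2.83 ± 0.08, adjusted p = 8.5e-12). Stat2, a transcription factor of type I interferon signalling, was at 42.1, 49.9 and 49.1 CPM in PBS and 108, 111 and 106 CPM in PE and rose 2.31-fold (log2 fold change 1.21 ± 0.07, adjusted p = 6.9e-09). The groups did not overlap at either gene. Batf2, a partner of IRF1 in activated macrophages, rose 8.53-fold (adjusted p = 1.1e-10). Irf8, a lineage factor of macrophages and dendritic cells, rose 1.58-fold from 79.1 ± 7.43 to 125 ± 2.48 CPM. Among the inhibitors, Socs1, which blocks JAK1 and JAK2, was at 0.526, 1.05 and 1.3 CPM in PBS and 4.19, 4 and 5.95 CPM in PE and rose 4.95-fold (log2 fold change 2.31 ± 0.26, adjusted p = 7.0e-06). Socs3, which mainly restrains the receptors of IL-6 type cytokines, rose 1.78-fold.

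The receptor and its kinases were not called. Ifngr1 was at 29, 31.6 and 27.4 CPM in PBS and 27.9, 25.7 and 27.7 CPM in PE with overlapping groups, and Ifngr2 was at 108, 101 and 98.7 CPM in PBS and 65.4, 66.6 and 74.1 CPM in PE. Every PE library of Ifngr2 lay below every PBS library, but the difference of 1.49-fold (log2 fold change -0.57 ± 0.06, adjusted p = 6.1e-06) was under the fold threshold, which it passed without replicate 3, without PBS replicate 3 and without PE replicate 3. Jak1 and Jak2 had log2 fold changes of -0.09 ± 0.09 and 0.35 ± 0.08, Stat3 of 0.35 ± 0.06, and Irf9, the DNA-binding partner of STAT2, of 0.19 ± 0.07. The phosphatases Ptpn2 and Ptpn6, which dephosphorylate JAKs and STATs, had 0.45 ± 0.09 and 0.44 ± 0.08, the repressor Irf2 had -0.23 ± 0.07 and the STAT inhibitor Pias1 had -0.32 ± 0.09. Cish, a SOCS protein, averaged near the floor, from 0.166 to 0.163 CPM.

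The promoters of Irf1, Socs1, 3 guanylate-binding proteins and Irgm1 are shown because they carry the DNA elements named above and their genes rose. The sequences are from RefSeq on GRCm38.p6, cover the 150 bases before the RefSeq start and are read along the gene's strand. Capitals mark matches on either strand to the GAS letters TTCNNNGAA (in Irf1 only) or to the ISRE letters, GAAA and GAAA parted by 2 bases of any kind, and adjoining ISRE matches overlap. Irf1 has 1 GAS match, 90 bases before the start (chr11:53769864-53770013, plus strand), while its second listed start has no GAS or ISRE match, nor have the second start of Gbp3 and the promoters of Cxcl9 and Tap1, genes that also rose. Socs1 has 2 ISRE matches, 83 and 77 bases before the start (chr16:10785537-10785686, minus strand). Gbp2 has 1 at 59 bases (chr3:142620513-142620662, plus strand), Gbp2b has 1 at 137 (chr3:142594697-142594846, plus strand), Gbp3 has 2 at 45 and 39 (chr3:142559894-142560043, plus strand) and Irgm1 has 2 at 30 and 24 (chr11:48871421-48871570, minus strand). The RefSeq start differs from that of the gene annotation used elsewhere here at Gbp2, Gbp3 and Irgm1, so these windows lie partly or wholly within the gene as that annotation places it.
Irf1: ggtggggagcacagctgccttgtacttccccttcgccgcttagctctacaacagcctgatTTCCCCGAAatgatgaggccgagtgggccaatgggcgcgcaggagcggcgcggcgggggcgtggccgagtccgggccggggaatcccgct
Socs1: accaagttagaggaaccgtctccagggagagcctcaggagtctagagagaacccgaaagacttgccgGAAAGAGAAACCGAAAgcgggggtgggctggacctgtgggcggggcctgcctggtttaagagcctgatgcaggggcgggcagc
Gbp2: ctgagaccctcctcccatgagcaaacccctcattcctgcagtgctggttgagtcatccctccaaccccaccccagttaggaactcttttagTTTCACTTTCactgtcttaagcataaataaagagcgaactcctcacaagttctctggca
Gbp2b: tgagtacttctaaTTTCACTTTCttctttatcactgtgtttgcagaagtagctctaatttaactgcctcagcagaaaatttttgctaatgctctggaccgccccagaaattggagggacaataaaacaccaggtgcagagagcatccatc
Gbp3: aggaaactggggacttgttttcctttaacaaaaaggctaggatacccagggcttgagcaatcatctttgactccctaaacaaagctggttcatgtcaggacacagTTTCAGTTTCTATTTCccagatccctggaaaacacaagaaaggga
Irgm1: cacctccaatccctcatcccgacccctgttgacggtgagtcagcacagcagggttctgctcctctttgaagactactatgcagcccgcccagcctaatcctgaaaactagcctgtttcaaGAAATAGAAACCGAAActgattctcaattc

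These letters were searched in windows from 250 bases before to 50 after each start, for 27025 genes. A GAS match was found in 9.55% of them and an ISRE match in 3.99%. Of the genes tested that had a window, 8.26% held a GAS and 4.08% an ISRE match. Among all 1582 genes that rose these shares were 8.78% and 9.48%, so their GAS share was near that of the genes tested. Of the 148 genes that rose over 8-fold, 84 had a window, of which 20.2% held a GAS and 21.4% an ISRE match. Among the guanylate-binding proteins, 5 of 11 had a window, and all 5 of these held an ISRE and 2 a GAS match. A match describes the letters and not a bound site.

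Of the 20 genes of the MHC class II pathway, 19 were tested, 11 rose and 1 fell, and the median log2 fold change was 2.63. Several members passed the filter on low counts only through libraries given IFNγ, and with at least 10 counts asked in every library the median was 0.02. Ciita, the master coactivator of the class II genes, had 2 counts over the 3 PBS libraries and 1392 over the 3 PE libraries, a ratio of 680.0 (95% interval 188–5620). The genes of the α and β chains were nearly silent in PBS. H2-Ab1, the β chain of I-A, was at 0.371, 0.204 and 0.246 CPM in PBS and 676, 633 and 607 CPM in PE and rose 2270-fold (log2 fold change 11.15 ± 0.13, adjusted p = 6.1e-16). H2-Eb1, the β chain of I-E, was at 0.217, 0.681 and 0.562 CPM in PBS and 1131, 1068 and 1019 CPM in PE and rose 2226-fold (log2 fold change 11.12 ± 0.16, adjusted p = 4.4e-15). Neither gene had any overlap between the groups. The row H2-Ea-ps, the I-E α locus that the annotation calls a pseudogene, had 3 counts over the 3 PBS libraries and 18168 over the 3 PE libraries, a ratio of 5920 (95% interval 2020–28700). Cd74 encodes the invariant chain that guards the class II groove and was the gene with a high PBS level, at 728, 944 and 871 CPM in PBS and 4677, 4557 and 4825 CPM in PE. It rose 5.53-fold (log2 fold change 2.47 ± 0.09, adjusted p = 4.1e-11).

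H2-DMa, the chaperone that loads the peptide, rose 9.21-fold from 4.28 ± 0.26 to 39.5 ± 1.88 CPM, and H2-Ob, part of the chaperone's inhibitor H2-O, had a ratio of 41 (95% interval 13.7–202) between the summed counts. Nfya, a subunit of the constitutive Y-box factor NF-Y, fell 1.53-fold (-0.61 ± 0.07 on the log2 scale) and lost its call in the test against a fold change of 1.5, without replicate 1 and without PBS replicate 1. The promoters of H2-Aa (chr17:34287824-34287973, minus strand) and H2-Eb1 (chr17:34305717-34305866, plus strand) are shown with the Y box in capitals, the NF-Y site ATTGG or its complement CCAAT. It lies 48 bases before the start of H2-Aa and 59 and 35 before that of H2-Eb1. A Y box stood in 12 of the 15 windows found for the list and in 41.1% of all genes. The match is not particular to this list. It was as frequent in the lists of cholesterol synthesis (93.8%), unfolded protein response (85.7%) and mitosis (81.0%), and rarer in others, such as complement (16.7%).
H2-Aa: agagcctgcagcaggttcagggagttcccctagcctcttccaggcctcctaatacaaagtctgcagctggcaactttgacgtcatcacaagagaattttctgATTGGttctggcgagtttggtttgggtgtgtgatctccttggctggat
H2-Eb1: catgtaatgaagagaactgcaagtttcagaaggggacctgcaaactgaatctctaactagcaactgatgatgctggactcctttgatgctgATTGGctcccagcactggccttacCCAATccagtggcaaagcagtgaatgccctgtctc

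Of the 23 genes of MHC class I and the immunoproteasome, 20 rose and none fell, with a median of 1.83. Nlrc5, the coactivator of class I genes, rose 3.14-fold from 32.1 ± 1.27 to 101 ± 1.34 CPM. The heavy chains H2-K1 and H2-D1 rose 3.85-fold and 3.43-fold, and B2m, the shared light chain, rose 2.18-fold to a mean of 1528 ± 88.4 CPM. The peptide transporter subunit Tap1 was at 34.5, 34.6 and 37.8 CPM in PBS and 289.6, 264 and 272 CPM in PE and rose 7.72-fold (log2 fold change 2.95 ± 0.06, adjusted p = 2.9e-13). Psmb9, an immunoproteasome subunit, was at 14.5, 16 and 13.2 CPM in PBS and 127, 127 and 126 CPM in PE and rose 8.7-fold (log2 fold change 3.12 ± 0.08, adjusted p = 1.5e-12), and its neighbour Psmb8 rose 4.84-fold. The class I rises were thus several-fold from genes already active in PBS, and no group overlapped at these genes. Of the 10 constitutive proteasome subunits, 1 rose, close to the 10.3% of all genes: Psmb7, the subunit that the immunoproteasome replaces with Psmb10, by 1.54-fold. That list had a median of 0.15.

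All 11 guanylate-binding proteins tested rose, with a median of 5.80. Members nearly silent in PBS, such as Gbp5, passed the filter on low counts only through libraries given IFNγ. The count and the median of the list thus lean towards rises. These large GTPases coat pathogen vacuoles and feed bacterial products to inflammasomes. Gbp2 (chr3:142620602-142638008 of GRCm38, plus strand) was at 0.495, 0.374 and 0.422 CPM in PBS and 95, 92.2 and 89.8 CPM in PE and rose 212-fold (log2 fold change 7.72 ± 0.12, adjusted p = 1.7e-14). Gbp2b rose 202-fold and Gbp4 111-fold, and Gbp5 had 2 counts over the 3 PBS libraries and 865 over the 3 PE libraries, a ratio of 423 (95% interval 117–3500). Gbp8, the member with the highest PBS level named here, at 23 ± 1.2 to 95 ± 4.95 CPM, rose least of the named members, 4.13-fold. Of the immunity-related GTPases, which act beside them, 10 of 13 tested rose and none fell, with a median of 3.05. Iigp1 likewise passed the filter only through libraries given IFNγ. Iigp1 had 1 count over the 3 PBS libraries and 4368 over the 3 PE libraries, a ratio of 4270 (95% interval 766–169000). Tgtp1 and Tgtp2, near copies between which reads may be shared, rose to 62.6 ± 8.32 CPM and 88.3 ± 7.51 CPM from at most 0.217 CPM in any PBS library. The regulatory members were already present in PBS: Igtp rose 8.29-fold from 7.31 ± 0.0893 to 60.6 ± 7.26 CPM, and Irgm1, which keeps the effector GTPases off host membranes, rose 2.97-fold from 43.8 ± 3.13 to 130.0 ± 10.7 CPM.

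**Figure D3:**
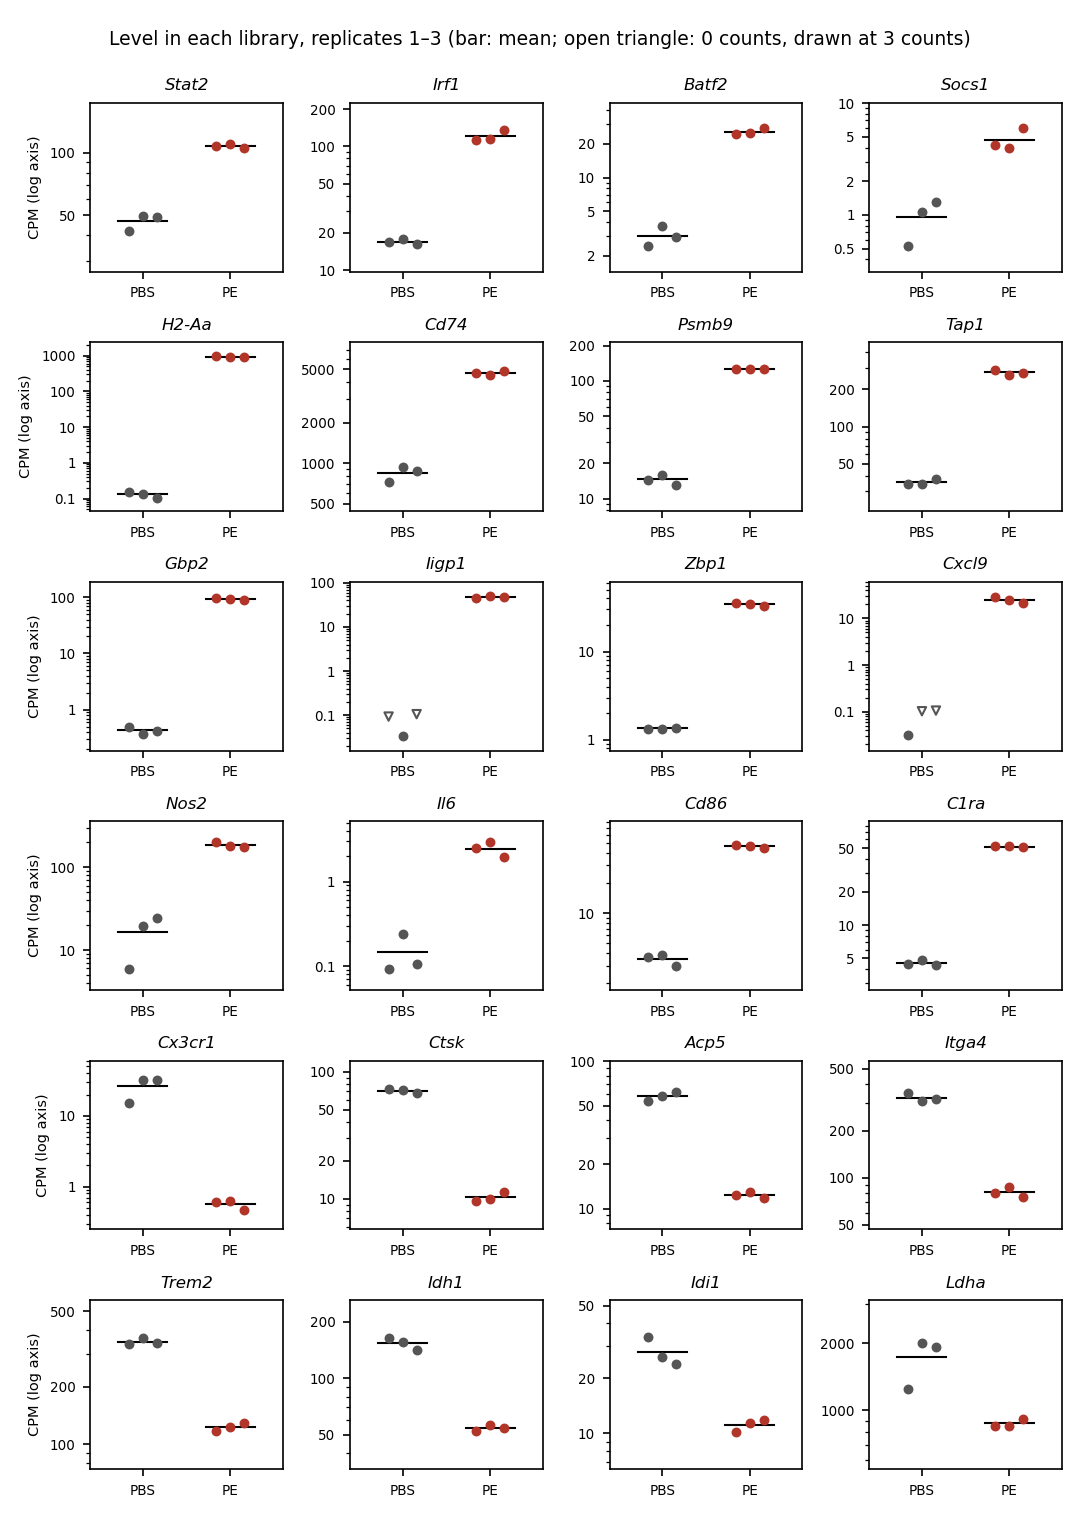
Levels of 24 genes in each of the 3 PBS libraries (grey) and 3 PE libraries (red), in CPM on log axes, with the group mean as a bar; an open triangle is a library with 0 counts, drawn at the level of 3 counts. The groups are separate in every panel, and PBS replicate 1 lies below the other PBS libraries at Nos2, Cx3cr1 and Ldha.

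Of 30 genes of the type I interferon response, 15 rose and 3 fell, with a median of 0.59, so the list moved in both directions. Zbp1, a sensor of Z-form nucleic acids, was at 1.33, 1.33 and 1.37 CPM in PBS and 35.2, 34.7 and 33.2 CPM in PE and rose 25.5-fold (log2 fold change 4.67 ± 0.10, adjusted p = 1.9e-13). Rsad2, which encodes the antiviral enzyme viperin, and Ifit3, a binder of foreign RNA, rose 6.13-fold and 6.12-fold. Mx1, a GTPase against influenza virus, rose 12.9-fold from 0.313 ± 0.13 to 4.06 ± 0.558 CPM, and Isg15, the ubiquitin-like modifier, rose 3.65-fold from 12.3 ± 2.12 to 44.9 ± 0.963 CPM. Irf7, the amplifier of type I interferon, rose 1.69-fold, a change of 0.75 ± 0.09 on the log2 scale that lost its call without replicate 1. Oas2, which makes the messenger that activates RNase L, was at 39.97, 47 and 46.4 CPM in PBS and 17.1, 15.8 and 18.5 CPM in PE and fell 2.6-fold (log2 fold change -1.38 ± 0.08, adjusted p = 1.9e-08). Ddx58, the RNA sensor RIG-I, fell 1.89-fold. At both genes every PE library lay below every PBS library.

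Of 17 inflammatory chemokine ligands, 14 were tested, 12 rose and 1 fell. Cxcl9, Cxcl11 and Ccl12 passed the filter on low counts only through libraries given IFNγ, so the count leans towards rises. The ligands of CXCR3, the receptor of activated T cells, came from near silence: Cxcl9 had 1 count over the 3 PBS libraries and 2295 over the 3 PE libraries, a ratio of 2240 (95% interval 402–88600), and Cxcl11 had no counts in PBS and 277 in PE, at least 30-fold above a floor of 3 counts per library. Cxcl10, the third ligand of CXCR3 and an M1 marker of the study, was lower, at 0.248, 0.408 and 0.879 CPM in PBS and 3.96, 3.38 and 3.16 CPM in PE, and rose 6.92-fold (log2 fold change 2.79 ± 0.31, adjusted p = 6.2e-06). Among the ligands of monocyte receptors, Ccl7 rose 13.4-fold, Ccl2 rose 3.13-fold from 12.3 ± 1.58 to 38.4 ± 2.84 CPM, and Ccl12 had no counts in PBS and 207 in PE, at least 22.4-fold above the floor. Ccl5, Ccl3 and Ccl4, which attract T cells and monocytes, rose 9.7-fold, 2.09-fold and 2.65-fold, Ccl3 from the highest PBS level of the 3, 207 ± 24.1 CPM. Ccl9 was the ligand that fell, at 231, 239 and 245 CPM in PBS and 139.9, 135 and 118 CPM in PE, and the difference was 1.82-fold (log2 fold change -0.87 ± 0.07, adjusted p = 2.4e-07). Of 9 receptors tested, 5 rose and 1, Cx3cr1, fell. Ccr2, the receptor of Ccl2, rose 2.24-fold from 2.29 ± 0.409 to 5.12 ± 0.355 CPM, the decoy-like receptor Ccrl2 rose 2.95-fold and C3ar1, the receptor of complement C3a, rose 1.91-fold.

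The M1 markers of the study were chosen by its authors for macrophage polarisation, so they are no independent evidence of direction. Of 9, 7 were tested and 6 rose. Nos2, the inducible nitric oxide synthase, was at 5.88, 19.5 and 24.2 CPM in PBS and 202, 181 and 176 CPM in PE and rose 11.3-fold (log2 fold change 3.50 ± 0.31, adjusted p = 7.2e-07). PBS replicate 1 was the lowest library, and the lowest PE library lay above the highest PBS library. Il6 was at 0.0929, 0.238 and 0.105 CPM in PBS and 2.5, 2.92 and 1.97 CPM in PE and rose 16.6-fold (log2 fold change 4.06 ± 0.33, adjusted p = 3.2e-07), to a level that stayed low. Tnf rose 1.78-fold from 27.7 ± 5.73 to 49.2 ± 2.16 CPM. Il23a rose 1.76-fold, but without replicate 1 or replicate 2 it was not called. Il1b averaged 0.0777 to 0.242 CPM with overlapping groups (adjusted p = 0.074) and was called without replicate 2 and without PE replicate 2. Il12b held at most 2 counts in any library, and Il12a was listed at 0 counts in all 6. Of the M2 markers, Mgl2, a macrophage lectin, was at 1.39, 1.74 and 1.76 CPM in PBS and 1.89, 1.33 and 2.14 CPM in PE with overlapping groups. Arg1 and Ccl17 were at or under 3 counts in every library and Chil3 at 0. In a wider list of alternative activation, 5 of 11 tested rose and 1 fell. Cd36, the scavenger receptor for oxidised lipids, was at 108, 76.7 and 71.7 CPM in PBS and 363, 410.2 and 325 CPM in PE and rose 4.28-fold (log2 fold change 2.10 ± 0.14, adjusted p = 3.5e-08). Il4ra, the IL-4 receptor chain, rose 2.48-fold. Irf4, the factor of M2 programmes, fell 1.96-fold from 6.05 ± 1.21 to 3.08 ± 0.559 CPM.

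Of 18 inflammatory cytokines, 14 were tested, 8 rose and 1 fell. Csf1, the growth factor of macrophages, was at 3.93, 5.11 and 5.41 CPM in PBS and 44.2, 39.8 and 42.4 CPM in PE and rose 8.77-fold (log2 fold change 3.13 ± 0.11, adjusted p = 3.7e-11). Il27, which restrains T cell responses, rose 8.93-fold from 0.248 ± 0.0835 to 2.22 ± 0.305 CPM, and Ltb, a TNF family member, rose 1.7-fold. Il1rn, the natural antagonist of IL-1, was at 150.2, 142 and 178 CPM in PBS and 97.3, 89.1 and 79.3 CPM in PE and fell 1.77-fold (log2 fold change -0.82 ± 0.11, adjusted p = 2.5e-05), without overlap. The NF-κB list was mixed, with 2 rises and 5 falls among 18, beside 10.3% and 9.54% of all genes. Feedback inhibitors were among the falls: Nfkbia (IκBα) fell 1.81-fold, Tnfaip3 (A20) fell 1.8-fold and its partner Tnip3 fell 2.03-fold. Nfkbiz, a coactivator of Il6 and related genes, and Nfkbib (IκBβ) rose 2.44-fold and 1.84-fold. Of 19 Toll-like receptors and adaptors 2 rose and 3 fell, close to the 10.3% and 9.54% of all genes. Tlr9, the sensor of bacterial DNA, rose 3.48-fold from 7.03 ± 0.891 to 24.4 ± 2.15 CPM, and Tirap, an adaptor of TLR4, fell 2.06-fold.

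Of the costimulatory and checkpoint ligands, 7 of 14 tested rose and 1 fell. Cd86 and Cd80, both ligands of CD28, moved in opposite directions. Cd86 was at 3.65, 3.85 and 2.95 CPM in PBS and 47.9, 46.6 and 44.1 CPM in PE and rose 13.2-fold (log2 fold change 3.73 ± 0.10, adjusted p = 2.0e-12). Cd80 was at 7.96, 8.17 and 5.94 CPM in PBS and 3.52, 3.35 and 2.79 CPM in PE and fell 2.28-fold (log2 fold change -1.19 ± 0.15, adjusted p = 2.8e-05). Cd40, the receptor through which T cells license macrophages, rose 3.99-fold, and Cd274, the checkpoint ligand PD-L1, rose 4.83-fold from 15.1 ± 1.12 to 72.9 ± 2.64 CPM. The SLAM family receptors Slamf7 and Slamf8 rose 12.9-fold and 47.7-fold, Slamf8 from 1.54 ± 0.41 to 73.7 ± 3.03 CPM.

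Complement genes rose in 10 of 16 tested and fell in none, with a median of 1.78. They include the chains of C1q and the proteases of the C1 complex, which starts the classical pathway. C1qa and C1s1 passed the filter on low counts only through libraries given IFNγ, so the list leans towards rises. C1ra, a protease of C1, was at 4.46, 4.8 and 4.39 CPM in PBS and 51.7, 51.7 and 50.8 CPM in PE and rose 11.3-fold (log2 fold change 3.50 ± 0.08, adjusted p = 3.3e-13). C1s1, the other protease, had no counts in PBS and 191 in PE, at least 20.7-fold above the floor. The recognition chains C1qb and C1qc rose to 17.7 ± 1.61 CPM and 18.9 ± 0.954 CPM from at most 0.186 CPM in any PBS library, and C1qa had 2 counts over the 3 PBS libraries and 376 over the 3 PE libraries, a ratio of 184 (95% interval 50.5–1520). C3, the component at which the pathways meet, was at 17.8, 17.7 and 16.5 CPM in PBS and 115, 105 and 104 CPM in PE and rose 6.21-fold (log2 fold change 2.63 ± 0.08, adjusted p = 5.7e-12).

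The Fcγ receptor list moved both ways, with 3 rises and 3 falls among 10. Fcgr1, the high-affinity receptor for IgG, was at 81.7, 112 and 120.1 CPM in PBS and 297, 306 and 316 CPM in PE and rose 2.93-fold (log2 fold change 1.55 ± 0.11, adjusted p = 6.9e-08). Fcgr4, a receptor for mouse IgG2, rose 2.47-fold. Syk, the kinase that Fc receptors recruit, was at 124, 113 and 106 CPM in PBS and 54.5, 52.2 and 52.8 CPM in PE and fell 2.16-fold (log2 fold change -1.11 ± 0.07, adjusted p = 3.8e-08), and Fgr, a Src family kinase, fell 2.21-fold. Of the 8 subunits of the phagocyte NADPH oxidase, 1 rose and 1 fell, close to the 10.3% and 9.54% of all genes. Cybb, the catalytic subunit, rose 1.62-fold and Ncf1, a cytosolic subunit, fell 1.51-fold, both near the fold threshold.

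Around Nos2, Ass1, which regenerates arginine from citrulline, was at 16.5, 22.3 and 18.1 CPM in PBS and 104, 98 and 99 CPM in PE and rose 5.29-fold (log2 fold change 2.40 ± 0.09, adjusted p = 9.8e-11). Gch1, the first enzyme of the cofactor tetrahydrobiopterin, rose 1.81-fold from 65.3 ± 13.1 to 118 ± 3.19 CPM. Arg2, the mitochondrial arginase that competes for arginine, had 148 counts over the PBS and 6 over the PE libraries, 25.2-fold lower (95% interval 11.3–69.9). In the list of itaconate, glycolysis and the TCA cycle, 2 of 30 rose and 8 fell. Acod1, which makes itaconate, was at 15.6, 22.9 and 20.04 CPM in PBS and 57, 60.1 and 65.2 CPM in PE and rose 3.12-fold (log2 fold change 1.64 ± 0.13, adjusted p = 3.0e-07), and Hk3, a hexokinase of myeloid cells, rose 2.24-fold from 455 ± 26.3 to 1018 ± 31.1 CPM. Ldha, the lactate dehydrogenase subunit, was at 1253, 2004 and 1938 CPM in PBS and 854, 854 and 914 CPM in PE and fell 1.98-fold (log2 fold change -0.99 ± 0.13, adjusted p = 2.9e-05), with PBS replicate 1 the lowest of its group. Pdk1, which shuts pyruvate out of the TCA cycle, fell 2.11-fold with PBS replicate 1 again lowest. Idh1, the cytosolic isocitrate dehydrogenase, was at 165, 156 and 142 CPM in PBS and 52.2, 56.6 and 54.2 CPM in PE and fell 2.84-fold (log2 fold change -1.50 ± 0.07, adjusted p = 1.2e-09).

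Genes of inflammasomes, pyroptosis and necroptosis rose in 7 of 14 tested and fell in none. Casp4, the sensor of cytosolic lipopolysaccharide, rose 2.38-fold, and Casp1, which cleaves pro-IL-1β and gasdermin D, rose 2.15-fold from 40.4 ± 4.08 to 86.9 ± 1.56 CPM. Nlrp3, a sensor that assembles inflammasomes, rose 1.69-fold. Ripk3 and Mlkl, the kinase and the pore of necroptosis, rose 2.01-fold and 1.91-fold (adjusted p at most 1.5e-05 over the 5). Fas, a death receptor, rose 2.25-fold from 5.06 ± 1.37 to 11.4 ± 0.641 CPM. The inflammasome adaptor Pycard was listed at 0 counts.

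The osteoclast list had the opposite balance, with 12 of 22 tested genes lower and 2 higher and a median of −0.78. RAW264.7 cells can become osteoclasts, the bone-resorbing cells, and express several of these genes without the osteoclast cytokine. Ctsk, the protease that digests bone collagen (chr3:95499256-95509362 of GRCm38), was at 73.7, 71.2 and 67.8 CPM in PBS and 9.54, 9.96 and 11.2 CPM in PE and fell 6.92-fold (log2 fold change -2.79 ± 0.10, adjusted p = 5.2e-11). Acp5, the acid phosphatase TRAP, was at 54.1, 57.9 and 62.2 CPM in PBS and 12.4, 12.9 and 11.8 CPM in PE and fell 4.7-fold (log2 fold change -2.23 ± 0.08, adjusted p = 4.1e-11). Atp6v0d2, a proton pump subunit, was at 164, 128 and 129.7 CPM in PBS and 42.3, 50.3 and 52.9 CPM in PE and fell 2.89-fold (log2 fold change -1.53 ± 0.11, adjusted p = 8.0e-08), and Mmp9, a matrix protease, fell 4.45-fold. No PE library reached the level of any PBS library at these 4 genes. Nfatc1, the master transcription factor of osteoclasts, fell 1.74-fold from 47 ± 1.85 to 26.9 ± 1.17 CPM. Clcn7, a chloride transporter of lysosomes and the resorption pit, and Ocstamp, a protein of osteoclast fusion, rose 1.63-fold and 2.56-fold, Ocstamp only to 3.41 ± 0.273 CPM. The list of integrins and adhesion held 6 rises and 5 falls among 19. Itga4, the α4 integrin of VLA-4, was at 348, 309.7 and 320.2 CPM in PBS and 79.9, 86.9 and 75.7 CPM in PE and fell 4.03-fold (log2 fold change -2.01 ± 0.07, adjusted p = 4.9e-11), while Itgb7, a β partner of α4, rose 2.9-fold and Itgal (LFA-1) rose 5.44-fold. Timp2, an inhibitor of matrix proteases, and Tspan10, a tetraspanin, fell 5.35-fold and 3.56-fold, and Selplg, the selectin ligand, rose 2.11-fold.

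Of 23 genes of cholesterol synthesis and uptake, 12 fell and none rose, with a median of −0.67. These are targets of SREBP2, encoded by Srebf2, which itself fell 1.59-fold from 156 ± 7.81 to 97.6 ± 2.3 CPM. Hmgcs1, an enzyme of the mevalonate pathway, was at 52.1, 45 and 46.3 CPM in PBS and 22.2, 23.4 and 19.8 CPM in PE and fell 2.19-fold (log2 fold change -1.13 ± 0.09, adjusted p = 1.8e-07). Idi1, a later enzyme of that pathway, was at 33.7, 26.3 and 24.1 CPM in PBS and 10.2, 11.4 and 11.8 CPM in PE and fell 2.52-fold (log2 fold change -1.33 ± 0.13, adjusted p = 1.5e-06). Every PE library lay below every PBS library at both. Insig1, the sterol-sensing retention protein, and Stard4, a cholesterol carrier, fell 1.95-fold and 1.99-fold. The letters TCACNNCA, used here for the sterol response element (SRE), stood in 9 of the 16 windows found for the list and in 15.7% of all genes.

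Fatty acid synthesis followed with 6 falls and no rise among 15. Fasn, the fatty acid synthase, was at 434, 383 and 358 CPM in PBS and 201, 181 and 188 CPM in PE and fell 2.06-fold (log2 fold change -1.04 ± 0.07, adjusted p = 7.1e-08). Acaca, which makes its substrate malonyl-CoA, and the elongase Elovl6 fell 1.86-fold and 1.99-fold. In the efflux list 1 of 13 rose and 2 fell, beside 10.3% and 9.54% of all genes. Abca1, the exporter of cellular cholesterol, was at 13.7, 12.8 and 11.7 CPM in PBS and 3.01, 4.62 and 2.04 CPM in PE and fell 3.93-fold (log2 fold change -1.97 ± 0.20, adjusted p = 3.6e-06), and Rxra, the partner of the oxysterol receptor LXR, fell 1.72-fold.

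Of 32 DNA replication genes 1 rose and 5 fell, beside 10.3% and 9.54% of all genes. Mcm6 and Mcm7, subunits of the replicative helicase, and Rrm2, of ribonucleotide reductase, fell 2.31-fold, 1.83-fold and 1.81-fold, with PBS replicate 1 highest at all 3. Of 26 mitosis genes 5 rose and none fell. Ube2c, which tags mitotic cyclins for destruction, was at 32.3, 40.8 and 55.9 CPM in PBS and 95.8, 90.7 and 86.9 CPM in PE and rose 2.12-fold (log2 fold change 1.08 ± 0.16, adjusted p = 6.8e-05). Bub1b and Mad2l1, of the spindle checkpoint, each rose 1.66-fold. Ccnd2, a D-type cyclin, was at 2.94, 3.37 and 3.87 CPM in PBS and 30.2, 32.9 and 29.6 CPM in PE and rose 9.14-fold (log2 fold change 3.19 ± 0.10, adjusted p = 1.8e-11). Myc rose 3.18-fold from 2.67 ± 1.46 to 8.39 ± 0.548 CPM, and Cdkn1b, the inhibitor p27, fell 1.62-fold. In the list of replication-dependent histones 7 of 12 tested fell, with a median of −0.87. Hist1h2bc was at 16.8, 17.7 and 17.1 CPM in PBS and 6.76, 5.87 and 7.86 CPM in PE and fell 2.52-fold (log2 fold change -1.33 ± 0.11, adjusted p = 3.6e-07), and Hist1h1c fell 1.92-fold. Genes whose names begin with Hist1 or Hist2 summed to 174.8–186 CPM in PBS and 71.64–82.71 CPM in PE. This sum was scaled to the total counts of each library, without TMM factors. It left out other histone genes such as H3f3a, at a mean of 277.6 CPM over the 3 PBS and 3 PE libraries. Most histone mRNAs of S phase lack a poly(A) tail, which the library kit selects for.

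Of 20 genes of the integrated stress response 7 rose and none fell. Ddit3, the transcription factor CHOP, was at 198, 325 and 412 CPM in PBS and 1061, 1070 and 1103 CPM in PE and rose 3.46-fold (log2 fold change 1.79 ± 0.18, adjusted p = 2.4e-06). Atf3, another of its factors, rose 2.23-fold, and Ppp1r15a (GADD34), which reverses the arrest of translation, rose 2.74-fold. PBS replicate 1 was the lowest library at all 3 genes. Of 16 genes of the unfolded protein response 3 rose and none fell, beside 10.3% and 9.54% of all genes. Hspa5, the chaperone BiP, was among the most abundant, at 4623, 5457 and 6379 CPM in PBS and 10940, 10670 and 10230 CPM in PE, and rose 1.93-fold (log2 fold change 0.95 ± 0.09, adjusted p = 1.9e-06).

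Of 17 NRF2 targets 6 rose and 1 fell. Hmox1, the haem oxygenase, was at 282, 353 and 359 CPM in PBS and 778, 783 and 749.9 CPM in PE and rose 2.33-fold (log2 fold change 1.22 ± 0.08, adjusted p = 4.1e-08). Gclm, of glutathione synthesis, and the peroxidase Prdx1 rose 2.37-fold and 2.34-fold, while Nfe2l2, which encodes NRF2 itself, fell 1.63-fold from 154 ± 2.44 to 94.3 ± 5.66 CPM. Of 14 genes of iron handling and metallothioneins 7 rose and 3 fell. Lcn2, which sequesters bacterial iron carriers, was at 10.2, 12.2 and 10.3 CPM in PBS and 113, 123 and 135 CPM in PE and rose 11.3-fold (log2 fold change 3.50 ± 0.10, adjusted p = 6.4e-12). Slc40a1, the iron exporter ferroportin, and Slc11a1, the phagosomal metal pump NRAMP1, rose 2.92-fold and 2.69-fold, and Mt2, a metallothionein, rose 2.17-fold. Tfrc, the transferrin receptor, was at 194, 119 and 106 CPM in PBS and 47.7, 55.8 and 46.3 CPM in PE and fell 2.8-fold (log2 fold change -1.48 ± 0.18, adjusted p = 1.3e-05), and Steap3, which reduces the iron it delivers, fell 1.73-fold.

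The ferritin genes Ftl1 and Fth1, which store iron, rose 2.05-fold and 1.63-fold, and with Cd74, Hspa5 and the row Ftl1-ps1 had the largest gains in mean CPM of all called genes. Ftl1 was at 5870, 6340 and 5774 CPM in PBS and 11490, 11950 and 13400 CPM in PE. Ferritin has many processed pseudogenes, and the row Ftl1-ps1 rose by the same 2.05-fold. The table held reads on near-identical copies: mt-Co2 and its nuclear copy Gm28661 had the same 3920 CPM in PBS, and pseudogenes took 12.3% of the counts against 0.412% in the PBS libraries of the Il-4 table. The ferritin, Tgtp and other values of genes with close copies are therefore uncertain. The largest losses in mean CPM were of Gpnmb, Lyz2, mt-Cytb, Gm10925 (a nuclear copy of mitochondrial sequence) and Gm42418, a row on ribosomal repeats. Gpnmb, a lysosomal glycoprotein of macrophages and osteoclasts, was at 7879, 7400 and 6737 CPM in PBS and 3509, 3567 and 3902 CPM in PE and fell 2-fold (log2 fold change -1.004 ± 0.07, adjusted p = 5.5e-08). Lyz2, the macrophage lysozyme, was at 5527, 4756 and 4429 CPM in PBS and 2652, 2641 and 2744 CPM in PE and fell 1.83-fold (log2 fold change -0.87 ± 0.08, adjusted p = 6.8e-07). Gm42418 spread widely, at 5627, 2858 and 3925 CPM in PBS and 1298, 2937 and 1470 CPM in PE, and its groups overlapped.

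All 10 calls among the 13 mitochondrially encoded transcripts were falls, with a median of −1.20, beside the lower mitochondrial share of the counts. mt-Cytb, of respiratory complex III, was at 3785, 3067 and 3224 CPM in PBS and 972, 1006 and 1109 CPM in PE and fell 3.26-fold (log2 fold change -1.71 ± 0.08, adjusted p = 1.7e-09). mt-Nd3, of complex I, fell 3.27-fold. mt-Atp8 was at 179, 31.1 and 33.8 CPM in PBS and 14, 14.5 and 16.2 CPM in PE, and PBS replicate 1 lay far above the other libraries. Without PBS replicate 1 the list median was −1.01. Of 30 nuclear genes of oxidative phosphorylation, in contrast, 1 fell and none rose, with a median of −0.06. Of 30 lysosomal genes 3 rose and 3 fell, close to the 10.3% and 9.54% of all genes. The cathepsins Ctsc and Ctsh rose 2.96-fold and 2.97-fold, and Gusb, the β-glucuronidase, and Atp6v1a, a proton pump subunit, fell 2.16-fold and 1.85-fold.

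Of 22 macrophage identity genes 3 rose and 3 fell, close to the 10.3% and 9.54% of all genes, with a median of 0.04. Trem2, a lipid-sensing receptor, was at 338, 362 and 342 CPM in PBS and 118, 123 and 129 CPM in PE and fell 2.81-fold (log2 fold change -1.49 ± 0.06, adjusted p = 1.5e-10), and Cd33, an inhibitory lectin, fell 2.56-fold. Csf1r, the receptor of CSF1, was at 769, 824 and 813 CPM in PBS and 579, 533 and 547 CPM in PE and stayed under the fold threshold, as did Adgre1 (F4/80) at 79.5, 64.6 and 72.2 CPM in PBS and 95.8, 104 and 85.4 CPM in PE. The list sums were 9578–10600 CPM in PBS and 7351–7507 CPM in PE. The B cell list summed to 21.8–29.46 CPM in PBS and 155.1–191.2 CPM in PE, nearly all of it Ighm, the heavy chain of IgM, which rose 6.7-fold, while Ms4a1 stayed under 3 counts. The T cell list summed to 8.638–12.37 and 19.49–21.67 CPM, with Lck, a Src family kinase, at 8.02, 10.7 and 11.9 CPM in PBS and 20.7, 19.2 and 21.4 CPM in PE, and the NK list to at most 0.06806 and to 2.327–2.499 CPM, all from the receptor Klrk1 (71 (95% interval 24–347) as a ratio of counts). Neutrophil, fibroblast, endothelial and epithelial lists summed to at most 0.7438, 0.4931, 32.2 and 0.1552 CPM in any library.

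The same contrast in replicates 4–6, which share no library with replicates 1–3, called 1685 of 15563 genes (10.8%), with 6.16% higher and 4.66% lower. Of the 2818 genes called in replicates 1–3 and tested in both, 661 rose in both, 449 fell in both and 9 were called in opposite directions. The antigen presentation and GTPase lists gave like counts in the second set, with 11 rises of class II genes (median 2.19), 20 of class I genes (1.62) and all 11 guanylate-binding proteins (5.48). The osteoclast list held 11 falls and 1 rise, with Ctsk at a log2 fold change of -2.90 ± 0.14 against -2.79 ± 0.10 in replicates 1–3. Cx3cr1 fell in both, by log2 -4.43 ± 0.90 in replicates 4–6. Of the 12 inflammatory chemokine ligands tested in both sets, 7 rose and 1 fell in replicates 4–6. Among these ligands, 1 was called in opposite directions in the 2 sets.

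**Figure D4:**
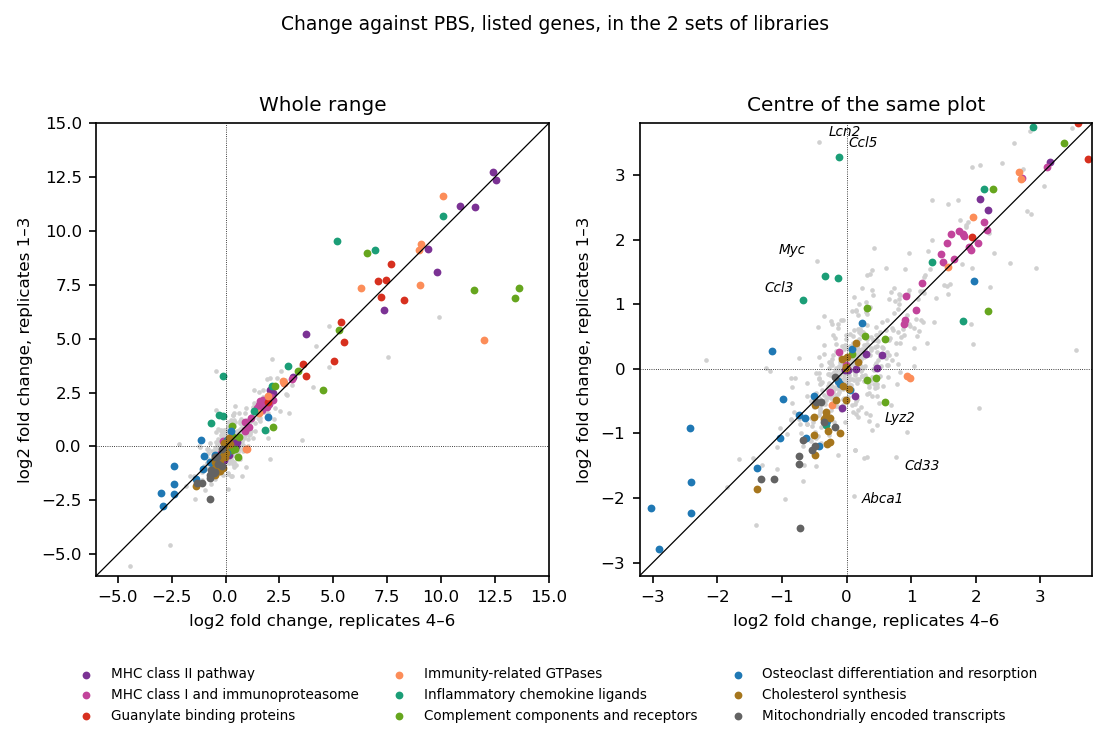
Each point is a gene of the lists, with its log2 fold change of PE over PBS in replicates 4–6 on the x axis and in replicates 1–3 on the y axis; the right panel enlarges the centre, colours mark lists and the line marks equal change. Most class II, class I and GTPase genes lie along the line, Ccl5, Lcn2 and Myc lie above it and Cd33 and Abca1 below it.

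The difference between the sets was tested directly by an interaction term in 12 libraries and passed an adjusted p of 0.05 at 1363 of 16444 genes (8.29%), of which 651 were called in replicates 1–3. The count was 757 without PBS replicate 6, 762 with a replicate block and 429 to 1132 when a replicate number was left out. Ccl5 was at 0.681, 0.625 and 1.81 CPM in PBS and 1.06, 0.996 and 0.872 CPM in PE of replicates 4–6, a log2 fold change of -0.12 ± 0.42 against 3.28 ± 0.12 in replicates 1–3 (difference 3.37, adjusted p = 0.0012). PBS replicate 6 was the highest of these, and without it the difference was 2.76. Lcn2 was at 14.2, 13.2 and 102 CPM in PBS and 28.7, 33.2 and 34.5 CPM in PE of replicates 4–6, where PBS replicate 6 alone stood far above the others. Its difference of 3.89 fell to 2.31 without that library. Acsbg1, an acyl-CoA synthetase, rose 5.88-fold in replicates 1–3 and had -0.37 ± 0.31 in replicates 4–6. In the other direction, Cd33 fell in replicates 1–3 and rose in replicates 4–6 (log2 -1.36 ± 0.10 and 0.77 ± 0.10, difference -2.17). Abca1 fell in replicates 1–3 and had 0.11 ± 0.13 in replicates 4–6 (difference -2.12). C3 rose in both and more in replicates 4–6 (difference -1.92).

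Of the cholesterol list, 1 of 23 fell in replicates 4–6, the list median was −0.25, and 11 members had a set difference. Hmgcs1 had -0.26 ± 0.08 in replicates 4–6 and a difference of -0.91. None of the 15 genes of fatty acid synthesis was called in replicates 4–6, with a list median of -0.246, and 4 had a set difference. Of 26 mitosis genes 17 rose in replicates 4–6 against 5 in replicates 1–3, but the difference between the sets passed the test at 4 of the 26. The 22 macrophage identity genes gave 9 rises and 1 fall in replicates 4–6, with a median of 0.489, and 10 had a set difference. Of the histone list none was called in replicates 4–6, with a median of 0.28. The libraries of the sets differed in composition as well. The Hist1 and Hist2 genes, scaled to total counts as above, summed to 2316–5315 CPM in the PBS and PE libraries of replicates 4–6. In those of replicates 1–3 they summed to 71.64–186 CPM. Protein-coding genes held 65.789–69.83% of the counts in the second set and 85.073–85.486% in the first, and the part of these differences in the results was not tested.

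The 2 peptides were compared in replicates 1–3 with the cytokine, dose and time held equal. They differ in a few residues, which include the epitope. PE and SE differed at 933 genes (6.08%), with 245 higher in PE (1.6%) and 688 lower (4.48%). This contrast and that with PBS share the PE libraries, so values are set side by side. Of the 3045 genes called against PBS, 2621 were not called between the peptides, which does not show that the peptides act alike on them. H2-Aa reached 951 ± 52.3 CPM with PE and 622 ± 46.8 CPM with SE (log2 0.61 ± 0.06, adjusted p = 2.2e-05). Ccl5 reached 11.1 ± 0.278 CPM with PE and 62.2 ± 5.52 CPM with SE (log2 -2.48 ± 0.09, adjusted p = 2.8e-09). Acod1 was at 60.8 ± 4.1 CPM and 284 ± 43.7 CPM (log2 -2.23 ± 0.13, adjusted p = 1.9e-07), and Irf7 at 105 ± 11 CPM and 276 ± 3.57 CPM (log2 -1.40 ± 0.09, adjusted p = 5.1e-07).

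Some genes that were lower than PBS with PE plus IFNγ had a mean level above PBS with SE plus IFNγ. Il1rn, at 157 ± 18.6 CPM in PBS, was at 88.6 ± 9.03 CPM with PE and 279 ± 35.7 CPM with SE (log2 -1.66 ± 0.11, adjusted p = 3.5e-07), and the same order held for Ccl9, at 131 ± 11.6 CPM and 305 ± 14.8 CPM. Scd2, a fatty acid desaturase that fell 1.58-fold with PE, was lower still with SE, at 254 ± 10.1 CPM and 102 ± 11.3 CPM (log2 1.31 ± 0.12, adjusted p = 7.7e-06). Bglap and Bglap2, near copies that encode the bone protein osteocalcin and may share reads, were highest with PE: Bglap2 was at 6.12 ± 0.524 CPM in PBS, 67.3 ± 10.5 CPM with PE and 17.4 ± 2.33 CPM with SE (log2 1.95 ± 0.12, adjusted p = 2.3e-07). Nos2 did not pass the test between the peptides, at 186 ± 13.9 CPM and 316 ± 23.6 CPM (log2 -0.76 ± 0.27, adjusted p = 0.054). Pgf, a vascular growth factor, was at 1.47 ± 0.3 CPM with PE and 13.9 ± 1.87 CPM with SE, and Pi16, of the peptidase inhibitor family, was at 57.1 ± 6.38 CPM and 19.7 ± 2.66 CPM.

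**Figure D5:**
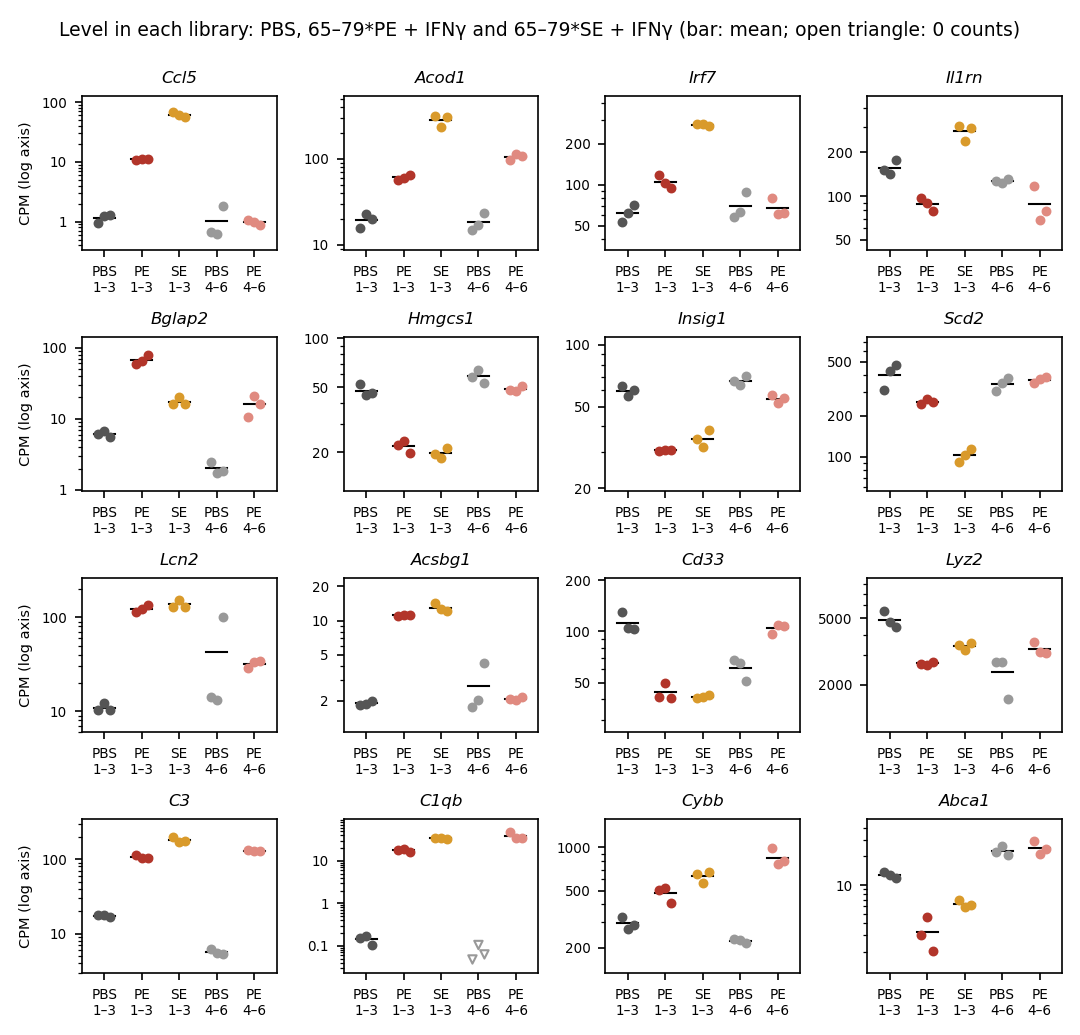
Levels of 16 genes in single libraries (CPM, log axes) of PBS, PE and SE in replicates 1–3 and of PBS and PE in replicates 4–6, with the group mean as a bar and open triangles for libraries with 0 counts. Ccl5, Acod1 and Irf7 are highest with SE, Bglap2 is highest with PE in replicates 1–3, and PBS replicate 6 stands apart at Lcn2, Acsbg1 and Ccl5.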

How the data were processed

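RAW264.7 RNA was sequenced by the authors as poly(A)-selected, stranded, single-end libraries and counted per gene with featureCounts and GENCODE M12 annotation, on GRCm38.p5 per the labels; the aligner was not given in the sources used here. The deposited values are raw read counts, without normalization, for 18 libraries of the IFNγ experiment. The methods speak of uniquely aligned reads, but rows of near-identical genes hold the same large counts, so reads appear to have been counted at several places. The authors' DESeq2 1.16.1 (R 3.4.1) comparisons are not part of the files used.

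Counts were scaled by TMM, filtered by filterByExpr and fitted with edgeR 4.0.16 (quasi-likelihood, R 4.3.3) in the 9 libraries of replicates 1–3 (PBS, SE and PE). Genes were called at a Benjamini-Hochberg adjusted p under 0.05 and a fold change over 1.5. Replicates 4–6 were fitted in the same way, and the difference between the sets in 12 libraries. Counts were also simulated over 15109 genes, with the same fixed dispersion for every gene and no outlying library. In them 98% of genes raised and 91.5% of genes lowered by 1 log2 unit were called, which is not the power of the real comparison. Ratios of summed counts have exact Clopper-Pearson 95% intervals. Depth was 27987849–32284471 counts per library in the groups compared. Alternatives covered normalization, filters, DESeq2 1.42.0, the test against a fold change of 1.5, the replicate block, protein-coding genes only and libraries left out. Gene classes and positions are from GENCODE M21, matched by symbol for 47214 of 49568 rows. A spreadsheet had turned 26 names into dates. Sequences are from RefSeq, with a promoter for 9404 of the 15343 genes tested.

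The members and the gene lists were chosen with earlier results of these data known. Genes were named by rule: the M1 and M2 markers of the study, the 8 largest rises and falls among genes of at least 10 CPM without overlap, the 5 largest gains and losses in mean CPM, up to 3 called members in each direction per list of at least 5 CPM, all genes of IFNγ signalling, and the 3 largest differences in each direction between sets and between peptides. Ciita, H2-DMa, H2-Ob, H2-K1, H2-D1, B2m, Nlrc5, Gbp4, Gbp8, Igtp, Irgm1, Mx1, Isg15, Irf7, Cxcl11, Ccl12, Ccl3, Ccl4, Il27, Cd274, Cd40, C3, C1qa, C1s1, Casp1, Ripk3, Mlkl, Nlrp3, Hmgcs1, Insig1, Srebf2, Stard4, Atp6v0d2, Ocstamp, Nfatc1, Scd2, Arg2, Klrk1, Mt2, Spi1, Csf1r, Adgre1 and Cd68 were added after their values were seen. Some genes that the rule picked are not reported here.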

Additional observations from a re-analysis of the deposited data

Results flagged for a closer look

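The change against PBS differed between replicates 1–3 and 4–6 at 1363 of 16444 genes by edgeR's interaction test, 757 without PBS replicate 6 and 762 with a replicate block. Values below are the log2 change in replicates 1–3 minus that in replicates 4–6, for the 71 genes of the text at which the difference had an adjusted p under 0.05. In 7 fits that each left out libraries, 32 of the 71 stayed past the threshold in all and 4 (Ccl9, Tlr9, Ifngr1 and Irf8) in none. Of the 71, 57 were named by rule, and 52 of these 57 were called in replicates 1–3. At 16 of the 52 the estimate in replicates 4–6 had the opposite sign. At the others the direction was shared, with the larger change in replicates 1–3 at 27 and the smaller at 9. A difference below can thus be 1 of size or of direction.

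A more positive change in replicates 1–3 was found at Lcn2 (3.89), Ccl5 (3.37), Il6 (1.88), Ccl3 (1.70), Ccl4 (1.50), Isg15 (1.40), Ccrl2 (0.91), Irf7 (0.77), Slamf8 (0.72), Tnf (0.61) and C3ar1 (0.58). It was also found at the acyl-CoA synthetase Acsbg1 (2.89), Mgl2 (2.28), the growth regulators Myc (2.08) and Ccne1 (0.72), the integrin Itgb7 (1.10) and Psmb7 (0.41). Of the NRF2 and iron genes, this sign was found at Gclm (0.97), Mt2 (0.96), Fth1 (0.89), Hmox1 (0.79), Ftl1-ps1 (0.71) and Ftl1 (0.70), and the opposite sign at Cp (-0.58) and Nfe2l2 (-0.48).

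A more negative change in replicates 1–3 was found at the lipid genes Abca1 (-2.12), Stard4 (-0.93), Hmgcs1 (-0.91), Idi1 (-0.88), Scd2 (-0.79), Insig1 (-0.71), Fasn (-0.61), Acaca (-0.53) and Srebf2 (-0.40). Complement and macrophage surface genes were C1qb (-6.74), C1qc (-6.46), C3 (-1.92), Cd33 (-2.17), Fcgr3 (-1.11), Itga4 (-1.10), Csf1r (-1.08), Adgre1 (-0.89) and Trem2 (-0.87). C1qb and C1qc had no counts in PBS of replicates 4–6, so the size of their differences depends on the prior count. Signalling and sensor genes were Tlr13 (-0.96), Tlr7 (-0.84), Tlr9 (-0.52), Tnip3 (-0.78), Syk (-0.58), Irf2 (-0.75), Pias1 (-0.45), Jak1 (-0.41), Ifngr1 (-0.40) and Irf8 (-0.36).

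The other genes with a negative difference were the guanylate-binding protein Gbp4 (-1.54), the oxidase subunits Cybb (-1.27) and Ncf1 (-0.86), the histones Hist1h1c (-1.38) and Hist1h2bc (-1.24), the lysosomal genes Lyz2 (-1.38), Ctsh (-1.41) and Gusb (-0.60), and the metabolic genes Idh1 (-1.07), Acod1 (-0.92) and Ass1 (-0.49). They also included Gm24146 (-2.95), at or under 3 counts in every PE library of replicates 1–3, Deptor (-1.71), F10 (-1.63), Ighm (-1.35), Cdkn1b (-0.89), Nfya (-0.58) and Ccl9 (-0.58).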

How the results depend on the processing

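The 3045 calls became 1464 (850 higher, 614 lower) in the test against a fold change of 1.5, which asks more of each gene. Under the other settings they were 2353 to 3286, DESeq2 giving 2960 and no low count filter 3286, and 2490 to 3262 when libraries were left out, the fewest without replicate 1. Of 200 called genes of the text, 162 kept direction and call under each of the 18 alternatives that tested them, and no estimate reversed. Genes that an alternative did not test, such as H2-Aa under the minimum of 10 counts, were not counted as losing their call there. A minimum of 10 counts in every library, which removes genes silent in PBS, took the median of the MHC class II list from 2.63 to 0.02. The set difference was the least stable count: 1363 became 2003 with DESeq2, 2013 with no low count filter, 762 with a replicate block and 429 to 1132 when a replicate number was left out, with 457, 429, 448 and 499 without replicates 1, 3, 5 and 6. Leaving out PBS replicate 6 alone, chosen after the data were seen, gave 757. The cause of the drops was not tested beyond the loss of samples. The contrast of the peptides gave 854 to 1068, and 600 to 1038 when a replicate number was left out, the fewest without replicate 3. Replicates 4–6 gave 1199 to 1936. The deviations of same-numbered PBS and PE libraries correlated at −0.092, −0.153 and 0.036, and those of differently numbered ones at −0.134 to 0.214. So few values cannot show whether the numbers pair the libraries. With the replicate block in the fit 2980 genes were called, 1694 in replicates 4–6 and 906 between the peptides. Depth limits the folds of genes near 3 counts in PBS, those of Ly6a, H2-Aa and Il6 included.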
